A study of Mus musculus with 8 samples.

Results

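The cell cycle and DNA replication genes were 41 genes, looked up by symbol in the deposited table of 55401 genes and kept as 3 groups by role: 22 genes that act in mitosis, 16 genes that act in S phase and 3 genes that act in G1. All 41 were found. They were all among the 15202 genes that reached 0.5 CPM (the count scaled to the library's total) in at least 1 library and were tested. The members were chosen with earlier results from these data known, so their counts are set beside those of all tested genes.

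The RNA came from hepatic macrophages of C57BL/6J mice, taken from the livers with an antibody to F4/80, a macrophage surface protein, and magnetic columns. Cells labelled normal were from WT mice on a standard diet. Cells labelled steatotic were from obese mice lacking the melanocortin 4 receptor (MC4R-KO) after 6 to 10 wk on a Western diet, so that genotype, diet and liver state cannot be told apart. The cells were cultured on collagen and received vehicle (Veh) or 500 μg/ml of cholesterol crystals (CC) for 24 h, and each of the 4 groups has 2 libraries. The study compared the responses of the 2 kinds of macrophage to the lysosomal stress that CC cause. The labels do not say whether the libraries of a group came from separate animals or cultures, so p-values measure only the spread between these libraries, which may be technical.

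Total counts were between 58668655 and 74529462 per library. As 1 fragment appears to make up about 4 counts, 3 fragments are 0.161 to 0.205 CPM, a limit for counting error alone. The knocked-out gene, *Mc4r*, had no counts (0) in the WT libraries and 28, 22, 53 and 72 counts in the libraries labelled steatotic. The receptor is known mainly from the brain, so 0 counts in WT macrophages do not check their label. The counts in the others go against the label of a knockout, unless reads still come from the altered allele, and each direction between the livers depends on the labels. All 10 macrophage markers were tested, and *Lyz2* (lysozyme) and *Cd68* (a lysosomal glycoprotein) were at no less than 3429 and 2075 CPM in any library. The 5 monocyte markers summed to 6.53 to 9.28 CPM with the label normal and to 80.5 to 123 CPM in those labelled steatotic, with *Plac8* and *Ly6c2* the most abundant of them. The 11 T and natural killer cell markers summed to 4.21 to 6.91 CPM and to 50.3 to 71.4 CPM in the same order, led by *Gzmb*, a granule protease, and *Nkg7*. The 10 hepatocyte markers, led by *Trf* and *Ass1*, summed to between 124 and 164 CPM in every library, while *Alb*, the albumin gene, was at 41.03 to 49.4 CPM with the label normal and at 1.24 to 2.31 CPM with the label steatotic. In such bulk RNA, fewer dividing cells and less RNA per dividing cell cannot be told apart.

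In G1, D-type cyclins relay growth signals to the cell cycle. In S phase, the MCM helicase and PCNA take part in copying the DNA, and in mitosis, kinases and motor proteins separate the chromosomes. Most S phase genes are switched on by E2F factors as a cell leaves G1, and most mitosis genes are switched on later, in G2, through promoter elements called the CHR and the CCAAT box. Resident macrophages of the liver can divide in place, whereas replication proteins are also present in cells that are only licensed to divide or that repair DNA.

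Promoters are shown here because the groups of genes are commonly told apart by these elements, whose letters were counted in them. Windows of 300 bases, from 250 before to 50 after the RefSeq start in GRCm38.p6, were at hand for 32 of the 41 genes, with more than 1 window for some genes. The CHR letters TTTGAA or TTCGAA, on either strand, were found in 15 of 19 windows of mitosis genes (78.9%), in 2 of 14 windows of S phase genes (14.3%) and in 19.2% of all 32851 windows. The CCAAT letters were found on either strand in 89.5% of the windows of mitosis genes, 64.3% of those of S phase genes and 37.4% of all windows. The E2F letters TTTCCCGC, TTTGGCGC, TTTCGCGC or TTTGCCGC, on either strand, were found in 1 window of a mitosis gene (5.26%), in 5 windows of S phase genes (35.7%) and in 2.26% of all windows. The share with CHR and CCAAT letters was thus highest in the windows of the mitosis genes, and that with E2F letters in those of the S phase genes, which describes letters and not binding. The stretches from -190 to 10 around the start are printed below for the 2 mitosis genes and the 2 S phase genes with the highest mean CPM, and for *Mcm6*, which was added after its values were seen because its level differed most between the labels among the S phase genes. Capitals mark the matches to the letters named above.
Bub1b (chr2:118598021-118598220, + strand): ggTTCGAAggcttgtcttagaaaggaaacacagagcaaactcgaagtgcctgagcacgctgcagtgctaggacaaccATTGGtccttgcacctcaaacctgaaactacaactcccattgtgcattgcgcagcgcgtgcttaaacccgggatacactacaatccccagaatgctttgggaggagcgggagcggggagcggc
Kif23 (chr9:61946790-61946989, - strand): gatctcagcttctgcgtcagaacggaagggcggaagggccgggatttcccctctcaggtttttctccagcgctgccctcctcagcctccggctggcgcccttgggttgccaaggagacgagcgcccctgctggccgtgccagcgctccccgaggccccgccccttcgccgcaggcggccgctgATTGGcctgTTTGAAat
Pcna (chr2:132253171-132253370, - strand): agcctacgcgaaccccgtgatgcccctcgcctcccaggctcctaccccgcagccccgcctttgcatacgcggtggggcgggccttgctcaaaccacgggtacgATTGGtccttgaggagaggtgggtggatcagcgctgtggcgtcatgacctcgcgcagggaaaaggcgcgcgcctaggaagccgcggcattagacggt
Mcm3 (chr1:20820303-20820502, - strand): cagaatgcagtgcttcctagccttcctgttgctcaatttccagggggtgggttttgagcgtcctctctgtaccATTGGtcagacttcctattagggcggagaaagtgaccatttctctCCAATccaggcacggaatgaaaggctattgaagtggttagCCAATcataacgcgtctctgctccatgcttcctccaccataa
Mcm6 (chr1:128359696-128359895, - strand): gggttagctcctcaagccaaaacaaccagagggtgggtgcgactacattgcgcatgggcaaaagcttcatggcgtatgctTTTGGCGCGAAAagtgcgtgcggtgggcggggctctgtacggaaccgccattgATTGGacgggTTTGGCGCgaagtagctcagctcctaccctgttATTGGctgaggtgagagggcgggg
The CHR match of *Bub1b* started at -188 and that of *Kif23* at 3, and each had a CCAAT match as well, at -113 and -7. *Pcna* had 1 CCAAT match, at -87, in this stretch, and *Mcm3* had 3, at -117, -72 and -32, with an E2F match in its window outside the printed stretch. *Mcm6* had 2 CCAAT matches, at -57 and -14, and 3 E2F matches, at -110, -106 and -47, of which the first pair overlap each other.

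The S phase genes were expressed at higher levels than the mitosis genes in these macrophages. The median of the mean level over the 8 libraries was 1.54 CPM for the mitosis genes (range 0.295 to 11.2 CPM) and 13.1 CPM for the S phase genes (range 1.12 to 215.1 CPM), beside 15.4 CPM for all tested genes. Per kilobase of annotated exons, the medians were 0.382 and 2.70 CPM per kb. Of the 22 mitosis genes, 9 had a mean under 1 CPM and 12 reached 0.5 CPM in every library, against 0 and 15 of the 16 S phase genes. The 3 G1 genes had means of 14.5 CPM (*Ccnd1*), 22.5 CPM (*Ccnd2*) and 232.4 CPM (*Cdkn1a*). The highest level per kilobase was that of *Pcna*, the sliding clamp of DNA polymerase, with 89.6 CPM per kb, followed by *Cdkn1a*, which encodes the cyclin-dependent kinase inhibitor p21, with 65.4 CPM per kb. *Mcm3* came next with 7.72 CPM per kb, and the highest mitosis gene, *Bub1b*, was in the eleventh place with 2.62 CPM per kb. At the lower end, *Cenpf*, which encodes a kinetochore protein, was at 0.0252 CPM per kb, with 0 CPM in 1 library labelled normal with CC. *Ube2c*, the ubiquitin-conjugating enzyme of the anaphase-promoting complex, was at 0 CPM in 1 library of the same group.

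**Figure D1:**
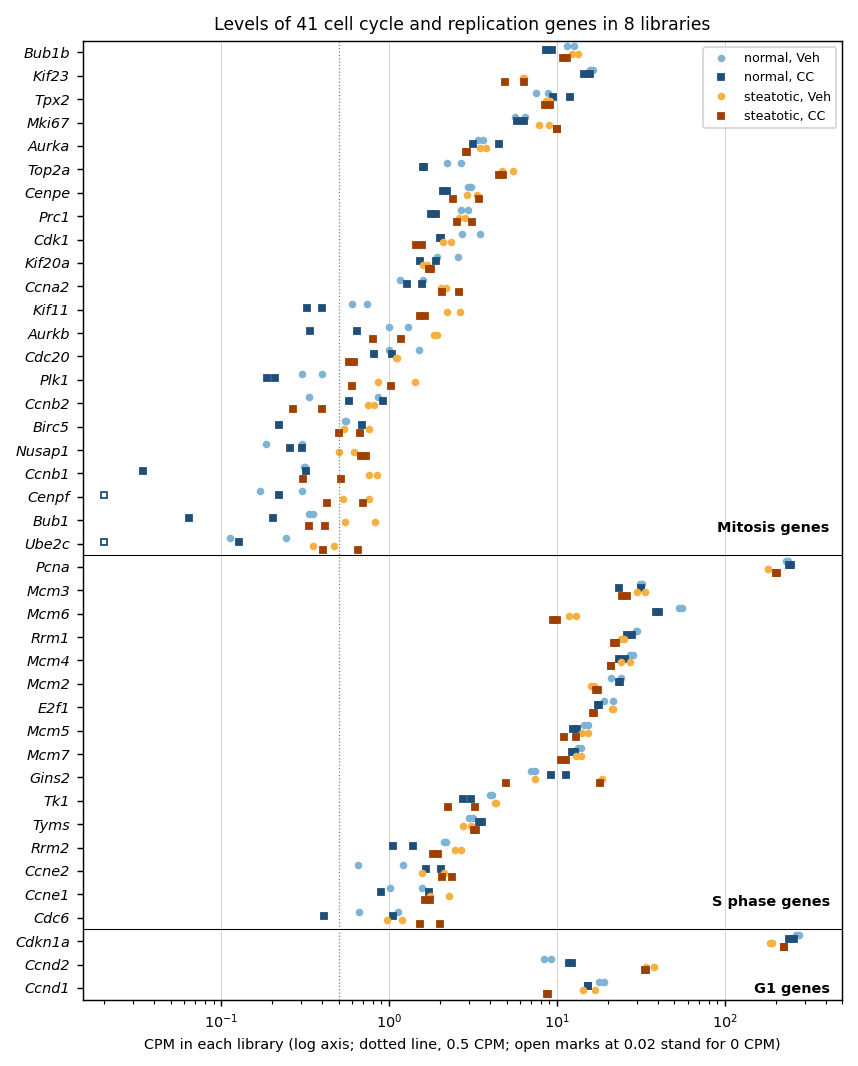
Level of each of the 41 genes in each of the 8 libraries, in CPM on a log axis, with circles for Veh, squares for CC, blue for the libraries labelled normal and orange or brown for those labelled steatotic. Mitosis genes are spread from below the dotted line at 0.5 CPM to about the level of *Bub1b* (11.2 CPM), and *Pcna* (215.1 CPM) and *Cdkn1a* (232.4 CPM) stand far to the right of the others.

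The exons of 11 of the 41 genes overlap those of a protein-coding neighbour on the opposite strand by at least 50 bp, and their counts are uncertain because the use of strand in counting is not stated, although the library kit keeps strand. They are *Ccna2*, *Ccnd1*, *Ccne2*, *Cdc20*, *Gins2*, *Kif20a*, *Mcm7*, *Nusap1*, *Prc1*, *Tk1* and *Ube2c*. The longest overlap, 2758 bp, is that of *Gins2*, which encodes a subunit of the replication helicase, with *Gse1*, at 35.4 to 69.8 CPM. With the label normal, *Gins2* was at 6.98 and 7.37 CPM with Veh and 11.3 and 9.15 CPM with CC. With the label steatotic, it was at 18.5 and 7.41 CPM with Veh and 4.97 and 17.9 CPM with CC. Its replicates within each steatotic group lay further apart than the group means of any comparison, and no difference was detectable. For 12 genes the annotation holds a pseudogene copy of at least 95% identity over at least 150 bp, of which *Pcna-ps2* reached 4.50 CPM and the others no more than 0.275 CPM.

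With Veh, 4 mitosis genes were higher with the label steatotic than with the label normal, and 1 was lower. The higher genes were *Mki67* (the proliferation antigen Ki-67), *Top2a* (topoisomerase IIα, which untangles DNA before chromosomes separate), *Kif11* (a kinesin that pushes the spindle poles apart) and *Plk1* (a mitotic kinase), and the lower gene was *Kif23* (a kinesin needed for cytokinesis). Over all 41 genes, 5 were higher and 6 lower, a share of 26.8%, beside 30.7% of all tested genes (16.4% higher and 14.3% lower). Genes were called at p under 0.05 by edgeR's quasi-likelihood test with Benjamini-Hochberg adjustment over all tested genes. The share of members called was thus near that of all genes. Of the 22 mitosis genes, 6 (*Ccnb1*, *Bub1*, *Cenpf*, *Plk1*, *Ube2c* and *Nusap1*) reached 0.5 CPM only in libraries labelled steatotic, so that they entered the test through the label in which they were higher. The 13 mitosis genes with a mean of at least 1 CPM over all libraries had a median log2 fold change of 0.14, with 9 of 13 above 0, beside a median of -0.01 for all tested genes. This division also depends in part on the levels with the label steatotic, since *Kif11*, 1 of the 13, was under 1 CPM in every library labelled normal, and the median is a description alone.

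*Kif11* was at 0.737 and 0.604 CPM with the label normal and at 2.65 and 2.22 CPM with the label steatotic. The groups did not overlap, and the log2 fold change was 1.90 (SE 0.265, edgeR quasi-likelihood adjusted p = 0.00128). How many of all tested genes lacked overlap was not counted, so here and below the calls rest on the test alone. *Top2a* was at 2.21 and 2.69 CPM with the label normal and at 4.70 and 5.45 CPM with the label steatotic. Both libraries labelled steatotic lay above both of the others, with a log2 fold change of 1.10 (SE 0.173, edgeR adjusted p = 0.00239). *Mki67* was at 5.62 and 6.43 CPM and at 8.97 and 7.83 CPM in the same order. The groups again did not overlap, but the log2 fold change was smaller, 0.52 (SE 0.130, edgeR adjusted p = 0.0189), and the adjusted p rose to as much as 0.111 when 1 library was left out (replicate 1 labelled normal with Veh or replicate 1 labelled steatotic with Veh). *Plk1* was at 0.397 and 0.302 CPM and at 1.42 and 0.856 CPM, a log2 fold change of 1.74 (SE 0.463, edgeR adjusted p = 0.0252). It is 1 of the 6 genes that entered the test through the libraries labelled steatotic, and it also passed with genes of any count kept. Its levels with the label normal were low, beside 0.161 to 0.205 CPM for 3 fragments, and the adjusted p rose to as much as 0.155 without 1 of 3 libraries (either replicate labelled normal with Veh, or replicate 1 labelled steatotic with Veh). *Kif23* was at 16.4 and 15.8 CPM with the label normal and at 6.37 and 6.22 CPM with the label steatotic. It was thus the most abundant mitosis gene in the former and was lower in the latter by a log2 fold change of -1.31 (SE 0.133, edgeR adjusted p = 0.000247), opposite to the 4 genes above.

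Other genes of the same mitotic steps did not pass the test with Veh. *Ccna2*, the cyclin of S phase and G2, was at 1.59 and 1.16 CPM with the label normal and 2.03 and 2.19 CPM with the label steatotic (edgeR adjusted p = 0.0867). *Cdk1*, the kinase that starts mitosis, was at 3.48 and 2.72 CPM and at 2.09 and 2.32 CPM (edgeR adjusted p = 0.142), and *Ccnb1*, the cyclin that activates it, at 0.312 and 0.317 CPM and at 0.849 and 0.761 CPM (edgeR adjusted p = 0.220). *Ccna2* and *Ccnb1* thus lay in the direction of the higher genes, and *Cdk1* in that of *Kif23*, but none passed the test. *Ccnb1* is also 1 of the 6 genes that entered the test through the libraries labelled steatotic. *Bub1b*, *Aurka*, *Cenpe* and *Tpx2*, which act in the spindle checkpoint or at the spindle, had log2 fold changes between 0.09 and 0.17. The summed level of the 22 mitosis genes was 66.6 ± 0.420 CPM (SD, n = 2) with the label normal and 67.9 ± 0.440 CPM with the label steatotic, because the lower *Kif23* offset the higher genes in the sum. The monocyte markers (5 of 5 higher) and the T and natural killer cell markers (9 of 11 higher, none lower) moved with the label in the same comparison. So did the macrophage markers (6 of 10 higher, 3 lower), the Kupffer cell markers (4 of 6 higher, 2 lower) and the dendritic cell markers (2 of 5 tested higher, 1 lower). The endothelial markers (4 of 6 tested higher, 1 lower), the hepatocyte markers (1 of 8 tested higher, 4 lower) and the cholangiocyte markers (1 of 4 higher) moved as well. Of the stellate cell and neutrophil markers only *Dcn* (log2 fold change 3.22) and *S100a8* (-0.92) were tested. The other 5 of 6 in each list were under 0.5 CPM in every library. Some monocyte, T or natural killer cell markers, among them *Nkg7*, reached 0.5 CPM only in libraries labelled steatotic, and some hepatocyte markers only in those labelled normal. These entered the test through the label in which they were higher. The part of these cell types in the results was not tested.

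Of the 16 S phase genes, 4 were lower with Veh in the libraries labelled steatotic and none was called higher, with a median log2 fold change of 0.04 and 10 of 16 above 0. The share called, 25%, was near that of all tested genes (30.7%, of which 14.3% lower). They were *Mcm6* and *Mcm2*, subunits of the helicase that unwinds DNA, *Pcna*, and *Rrm1*, the large subunit of ribonucleotide reductase, which makes deoxynucleotides. *Mcm6* (ENSMUSG00000026355.11, chromosome 1 of GRCm38 from 128331590 to 128359664, minus strand) was at 55.4 and 53.2 CPM with the label normal and at 13.0 and 11.7 CPM with the label steatotic. The libraries of both labels were far apart, with a log2 fold change of -2.09 (SE 0.0797, edgeR adjusted p = 2.00e-06), the largest among the S phase genes. The other differences were smaller. *Pcna* was at 238 and 231 CPM with the label normal and at 180 and 179 CPM with the label steatotic, a log2 fold change of -0.34 (SE 0.0371, edgeR adjusted p = 0.000378). *Mcm2* was at 21.02 and 24.1 CPM and at 16.6 and 16.0 CPM, a log2 fold change of -0.43 (SE 0.0864, edgeR adjusted p = 0.00772). *Rrm1* was at 29.7 and 29.4 CPM and at 24.2 and 25.0 CPM. Its groups did not overlap, but the log2 fold change of -0.22 (SE 0.0690, edgeR adjusted p = 0.0457) was near the threshold and lost it in 12 of 16 other settings, among them without any 1 of the 8 libraries, with adjusted p up to 0.174. The summed level of the 16 S phase genes was 468.9 ± 7.03 CPM with the label normal and 367.6 ± 7.74 CPM with the label steatotic (SD, n = 2 each). Without *Pcna* and *Mcm6*, the sums were 180.0 ± 0.867 and 175.5 ± 6.39 CPM. *Ccne2*, the gene of cyclin E2, was at 1.20 and 0.649 CPM with the label normal and at 1.57 and 2.13 CPM with the label steatotic. Its log2 fold change of 1.04 (SE 0.333, edgeR adjusted p = 0.0503) was just outside the threshold, and it was called higher with DESeq2, with genes of any count kept and with counts divided by 4 (adjusted p = 0.0445, 0.0386 and 0.0403).

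*Mcm6* stood apart from the other subunits of its complex, whose 6 subunits form 1 ring in equal numbers. Per kilobase of exons, *Mcm6* with the label normal was at 11.9 and 11.4 CPM per kb (Veh) and at 8.29 and 8.64 CPM per kb (CC). In each of these 4 libraries it was the most abundant subunit, at 2.48 to 3.27 times the median of the other five. With the label steatotic, it was at 2.78 and 2.51 CPM per kb (Veh) and at 2.14 and 2.03 CPM per kb (CC). There it was in the fifth place of 6 with Veh and in the last place with CC, at 0.654 to 0.783 times the median of the others. *Mcm3*, *Mcm4*, *Mcm5* and *Mcm7* had log2 fold changes between -0.08 and 0.05 for steatotic against normal with Veh, with SEs of 0.0843 to 0.137, and none passed the test.

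**Figure D2:**
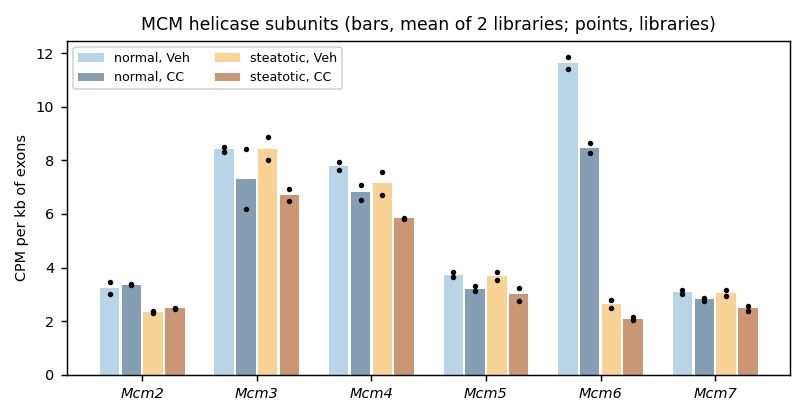
Level of the 6 MCM subunits in CPM per kilobase of exons, with bars for the mean of 2 libraries and points for the libraries. *Mcm6* is the highest of all bars in both groups labelled normal (8.29 to 11.9 CPM per kb) and falls below *Mcm3* and *Mcm4* in both groups labelled steatotic (2.03 to 2.78 CPM per kb), where *Mcm3* is the highest bar.

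The G1 genes differed in both directions with Veh. *Ccnd2* (ENSMUSG00000000184.12, chromosome 6 of GRCm38 from 127125162 to 127152193, minus strand), which encodes cyclin D2, was at 8.39 and 9.21 CPM with the label normal and at 37.8 and 33.7 CPM with the label steatotic. The groups were far apart, with a log2 fold change of 2.07 (SE 0.0899, edgeR adjusted p = 3.80e-06), the largest increase of all 41 genes in this comparison. *Cdkn1a* was at 264 and 275 CPM with the label normal and at 190.2 and 184 CPM with the label steatotic, a log2 fold change of -0.48 (SE 0.0456, edgeR adjusted p = 0.000176). *Ccnd1*, which encodes cyclin D1, was at 18.99 and 17.7 CPM and at 16.7 and 14.2 CPM and did not pass the test (edgeR adjusted p = 0.182). The ratio of *Ccnd2* to *Ccnd1* per kilobase was therefore 0.221 and 0.261 with the label normal and 1.13 and 1.18 with the label steatotic, so that cyclin D1 RNA was the more abundant of both in the former and cyclin D2 RNA in the latter.

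Among the libraries with CC, which are others than those compared above, the labels were compared again. Of the 41 genes, 7 were higher and 6 lower with the label steatotic (31.7%), beside 28.8% of all tested genes (15.9% higher and 12.9% lower). *Kif11* was at 0.401 and 0.324 CPM with the label normal and at 1.52 and 1.64 CPM with the label steatotic, a log2 fold change of 2.14 (SE 0.279, edgeR adjusted p = 0.00105). *Top2a* was at 1.60 and 1.59 CPM and at 4.48 and 4.78 CPM, a log2 fold change of 1.56 (SE 0.178, edgeR adjusted p = 0.000525). *Mki67* was at 5.80 and 6.39 CPM and at 10.0 and 9.93 CPM, a log2 fold change of 0.74 (SE 0.130, edgeR adjusted p = 0.00469). All 3 genes were thus called higher with CC, as they were with Veh. *Plk1* was at 0.208 and 0.187 CPM with the label normal, about the level of 3 fragments, and at 1.02 and 0.604 CPM with the label steatotic (edgeR adjusted p = 0.0175, up to 0.0938 without 1 of 3 libraries: either replicate labelled normal with CC, or replicate 1 labelled steatotic with CC). *Bub1b* (log2 fold change 0.34, edgeR adjusted p = 0.0470) and *Prc1*, a spindle midzone protein (0.64, edgeR adjusted p = 0.0392), also passed the test here, but lost the threshold in 13 and 11 of 16 other settings, *Bub1b* without any 1 of the 8 libraries and *Prc1* without any 1 except replicate 2 labelled steatotic with CC (edgeR adjusted p up to 0.190 and 0.172). *Ube2c*, at 0.128 and 0 CPM and at 0.656 and 0.403 CPM, passed with DESeq2 and with counts divided by 4 (adjusted p = 0.0287 and 0.0392), but not with edgeR on the counts as deposited. It reached 0.5 CPM in only 1 library, replicate 1 labelled steatotic with CC. It thus entered these tests through the group in which it was higher. *Kif23* was at 15.7 and 14.5 CPM with the label normal and at 4.91 and 6.32 CPM with the label steatotic, a log2 fold change of -1.40 (SE 0.134, edgeR adjusted p = 0.000213).

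The S phase genes *Mcm6*, *Pcna*, *Mcm2* and *Rrm1* were lower with the label steatotic under CC as well, and none was called higher. *Cdc6*, which loads the helicase, was at 1.06 and 0.409 CPM with the label normal and 1.997 and 1.53 CPM with the label steatotic (log2 fold change 1.29, edgeR adjusted p = 0.0866, or 0.0303 with the replicate number as a block). *Mcm6* was at 38.7 and 40.3 CPM with the label normal and at 9.99 and 9.49 CPM with the label steatotic, a log2 fold change of -1.99 (SE 0.0799, edgeR adjusted p = 2.64e-06). *Pcna*, *Mcm2* and *Rrm1* had log2 fold changes of -0.23, -0.41 and -0.26 (edgeR adjusted p = 0.00321, 0.00980 and 0.0267). *Mcm2* lost the threshold without replicate 2 labelled steatotic with CC (edgeR adjusted p = 0.0522), and *Rrm1* without replicate 2 labelled normal with CC or either replicate labelled steatotic with CC (edgeR adjusted p up to 0.129). Among the G1 genes, *Ccnd2* was higher by a log2 fold change of 1.51 (SE 0.0883, edgeR adjusted p = 1.71e-05), and *Ccnd1* was lower by a log2 fold change of -0.77 (SE 0.102, edgeR adjusted p = 0.00111). *Cdkn1a* did not pass the test with CC (log2 fold change -0.11, edgeR adjusted p = 0.123). The summed level of the S phase genes was 449.2 ± 12.7 CPM with the label normal and 363.2 ± 5.94 CPM with the label steatotic (SD, n = 2 each), and that of the mitosis genes 59.3 ± 2.08 and 61.8 ± 0.313 CPM. The monocyte markers (5 of 5 higher) and the T and natural killer cell markers (10 of 11 higher) again moved with the label. So did the macrophage markers (6 of 10 higher, 3 lower), the Kupffer cell markers (4 of 6 higher, 2 lower) and the dendritic cell markers (1 of 5 tested higher, 1 lower). The endothelial markers (3 of 6 tested higher), the hepatocyte markers (1 of 8 tested higher, 5 lower) and the cholangiocyte markers (1 of 4 higher) moved as well. *Dcn*, the only stellate cell marker tested, was higher (log2 fold change 4.28). As given above, some of these markers entered the test only through the label in which they were higher. The part of these cell types was not tested.

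**Figure D3:**
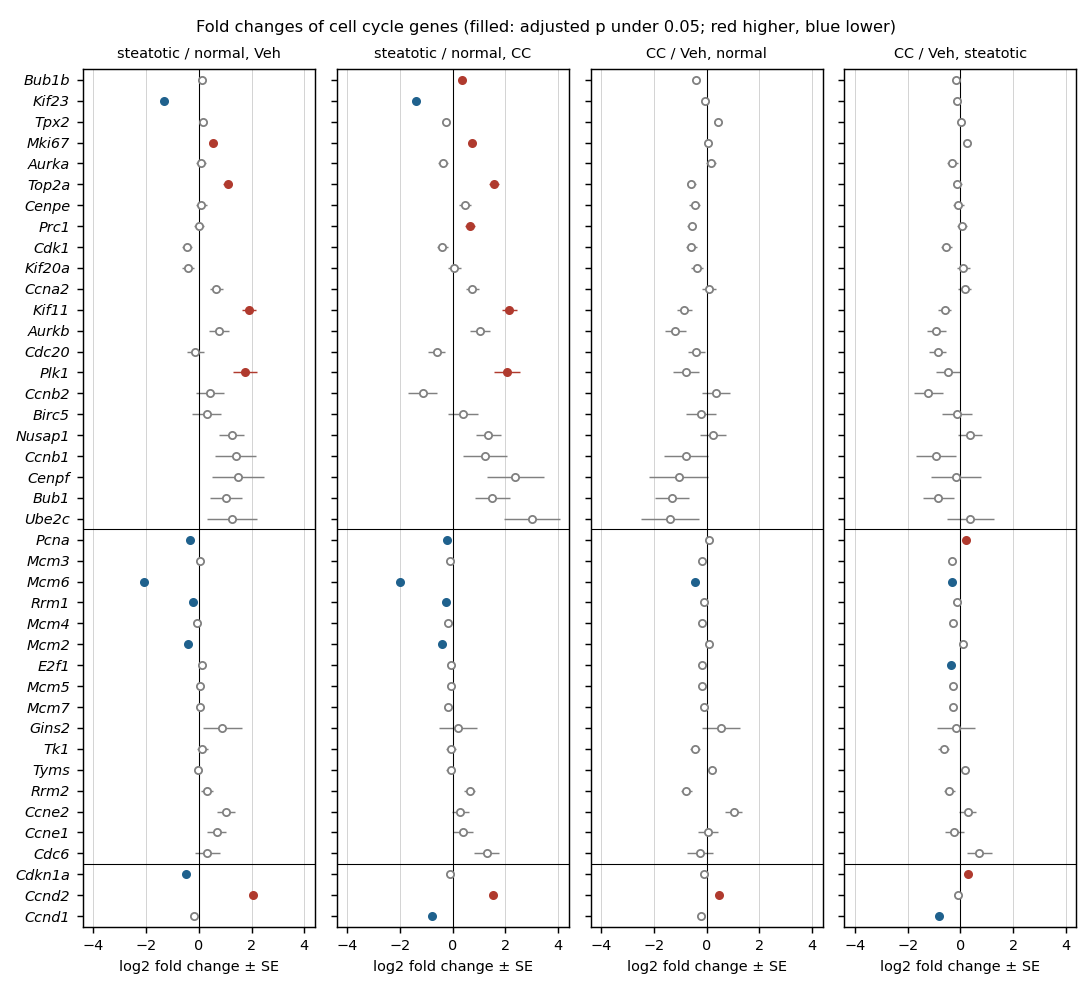
Log2 fold change of each gene (points, with bars of 1 SE) in 4 comparisons, with filled points for adjusted p under 0.05 (edgeR), red higher and blue lower, in the order of mean level within mitosis, S phase and G1 genes. In both panels of steatotic against normal, *Kif11*, *Plk1*, *Top2a* and *Ccnd2* lie to the right and *Mcm6* and *Kif23* to the left, while no mitosis gene is filled in either panel of CC against Veh, and fold changes of genes near 0 CPM, such as *Ube2c*, depend on the prior count.

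CC changed few of these genes within either kind of macrophage. In the libraries labelled normal, 1 of the 41 genes was higher with CC than with Veh and 1 was lower (4.88%), beside 11.8% of all tested genes (6.27% higher and 5.54% lower). The higher gene was *Ccnd2*, which went from 8.39 and 9.21 CPM with Veh to 12.2 and 11.8 CPM with CC. Its groups did not overlap, with a log2 fold change of 0.48 (SE 0.0881, edgeR adjusted p = 0.0122, and up to 0.0728 without replicate 1 of either group). The lower gene was *Mcm6*, which went from 55.4 and 53.2 CPM to 38.7 and 40.3 CPM, a log2 fold change of -0.42 (SE 0.0763, edgeR adjusted p = 0.0115, and up to 0.0747 without replicate 1 of either group). None of the 22 mitosis genes passed the edgeR or the DESeq2 test in these libraries, while 7 had an unadjusted p under 0.05 (edgeR), beside 25.2% of all tested genes. Of these, *Tpx2*, a spindle assembly factor, was higher, at 9.42 and 11.9 CPM with CC against 8.80 and 7.44 CPM with Veh, and the other six were lower. The lowest adjusted p among them was that of *Bub1b*, at 11.4 and 12.7 CPM with Veh and 9.28 and 8.61 CPM with CC (edgeR adjusted p = 0.0542, or 0.0383 with library size scaling only). The 13 mitosis genes with a mean of at least 1 CPM had a median log2 fold change of -0.39, with 9 of 13 below 0, beside a median of 0.00 for all tested genes, and the summed level of all 22 went from 66.6 ± 0.420 to 59.3 ± 2.08 CPM (SD, n = 2 each). The S phase genes had a median log2 fold change of -0.13, with 10 of 16 below 0. Their sum without *Pcna* went from 234.3 ± 2.41 to 206.5 ± 7.32 CPM with CC. The T and natural killer cell markers summed to 6.49 ± 0.596 CPM with Veh and 4.44 ± 0.323 CPM with CC in these libraries (2.43 ± 0.285 and 2.07 ± 0.178 CPM without *Gzmb*). The macrophage markers had a median log2 fold change of -0.45 (8 of 10 lower, 1 higher). Of the Kupffer cell markers 3 of 6 were lower and none higher, and 1 of 6 endothelial markers tested was higher. *S100a8*, the only neutrophil marker that reached 0.5 CPM in any library, was higher (log2 fold change 0.66). *Dcn*, the only stellate cell marker that reached 0.5 CPM in any library, was also higher. It was at 2.14 and 2.07 CPM with Veh and 7.002 and 5.69 CPM with CC. The part of these cells was not tested.

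In the libraries labelled steatotic, 2 of the 41 genes were higher with CC and 3 were lower (12.2%), beside 22.9% of all tested genes (12% higher and 10.9% lower). *Ccnd1* (ENSMUSG00000070348.5, chromosome 7 of GRCm38 from 144929931 to 144939925, minus strand) went from 16.7 and 14.2 CPM with Veh to 8.84 and 8.76 CPM with CC. The groups did not overlap, with a log2 fold change of -0.80 (SE 0.102, edgeR adjusted p = 0.00109), the largest of the 5 changes. The exons of *Ccnd1* overlap 1100 bp of *LTO1* on the opposite strand, which was at 16.1 and 16.5 CPM with Veh and 16.8 and 14.5 CPM with CC, so that the groups of the neighbour overlapped. *E2f1*, a factor that switches on S phase genes, went from 21.7 and 21.3 CPM to 16.5 and 16.3 CPM, a log2 fold change of -0.37 (SE 0.0804, edgeR adjusted p = 0.0138, and up to 0.0640 without any 1 of these 4 libraries). *Mcm6* went from 13.0 and 11.7 CPM to 9.99 and 9.49 CPM, a log2 fold change of -0.32 (SE 0.0782, edgeR adjusted p = 0.0217), which lost the threshold in 4 of 16 other settings, among them without replicate 1 labelled steatotic with Veh and without either replicate labelled steatotic with CC (adjusted p up to 0.104). The higher genes were *Pcna*, from 180 and 179 CPM to 205 and 202 CPM, and *Cdkn1a*, from 190.2 and 184 CPM to 225 and 226 CPM. The log2 fold changes of both were 0.20 (SE 0.0371, edgeR adjusted p = 0.00736) and 0.29 (SE 0.0456, edgeR adjusted p = 0.00330), both small and without overlap between the groups.

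None of the 22 mitosis genes passed the edgeR or the DESeq2 test for CC in the libraries labelled steatotic, and 4 had an unadjusted p under 0.05 (edgeR), beside 33.5% of all tested genes (16.5% lower). These 4, *Cdk1*, *Cdc20*, *Aurkb* and *Kif11*, were all lower. *Aurkb*, the kinase of the chromosomal passenger complex, was at 1.92 and 1.86 CPM with Veh and at 1.17 and 0.805 CPM with CC (edgeR adjusted p = 0.124). *Cdc20*, an activator of the anaphase-promoting complex, was at 1.10 and 1.11 CPM with Veh and at 0.579 and 0.617 CPM with CC (edgeR adjusted p = 0.105). Neither passed the test across all genes. The 13 mitosis genes with a mean of at least 1 CPM had a median log2 fold change of -0.12, and the summed level of all 22 was 67.9 ± 0.440 CPM with Veh and 61.8 ± 0.313 CPM with CC (SD, n = 2 each). The S phase genes had a median of -0.26, with 11 of 16 below 0, and their sum was 367.6 ± 7.74 CPM with Veh and 363.2 ± 5.94 CPM with CC. Without *Pcna*, its most abundant gene, that sum was 188 ± 7.28 CPM with Veh and 159.6 ± 7.72 CPM with CC. The helicase subunits *Mcm4* and *Mcm7* were each lower by log2 values of -0.28 without passing the test (edgeR adjusted p = 0.0531 and 0.0722), although *Mcm4* passed with library size scaling only and with genes of any count kept (adjusted p = 0.0432 and 0.0499). *Tk1*, the thymidine kinase of S phase, was at 4.26 and 4.34 CPM with Veh and at 2.23 and 3.23 CPM with CC (edgeR adjusted p = 0.0603, or 0.0495 with counts divided by 4). In the same comparison, the T and natural killer cell markers summed to 68.5 ± 4.08 CPM with Veh and 50.7 ± 0.499 CPM with CC (SD, n = 2 each). Without *Gzmb* the sums were 19.6 ± 2.03 and 16.5 ± 0.00679 CPM, and 0 of the 11 markers were called. The monocyte markers summed to 120.1 ± 3.74 and 89.0 ± 11.98 CPM, and 1 of 5 was called lower. Of the macrophage markers, 7 of 10 were lower and 2 higher, with a median log2 fold change of -0.51, and of the Kupffer cell markers 5 of 6 were lower and 1 higher. Of the endothelial markers, 3 of 6 tested were higher and 1 lower. *S100a8*, the only neutrophil marker that reached 0.5 CPM in any library, was higher (log2 fold change 1.97). *Dcn*, the only stellate cell marker that reached 0.5 CPM in any library, was at 20.8 and 17.4 CPM with Veh and at 135 and 108 CPM with CC. The part of these cells in the results was not tested.

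**Figure D4:**
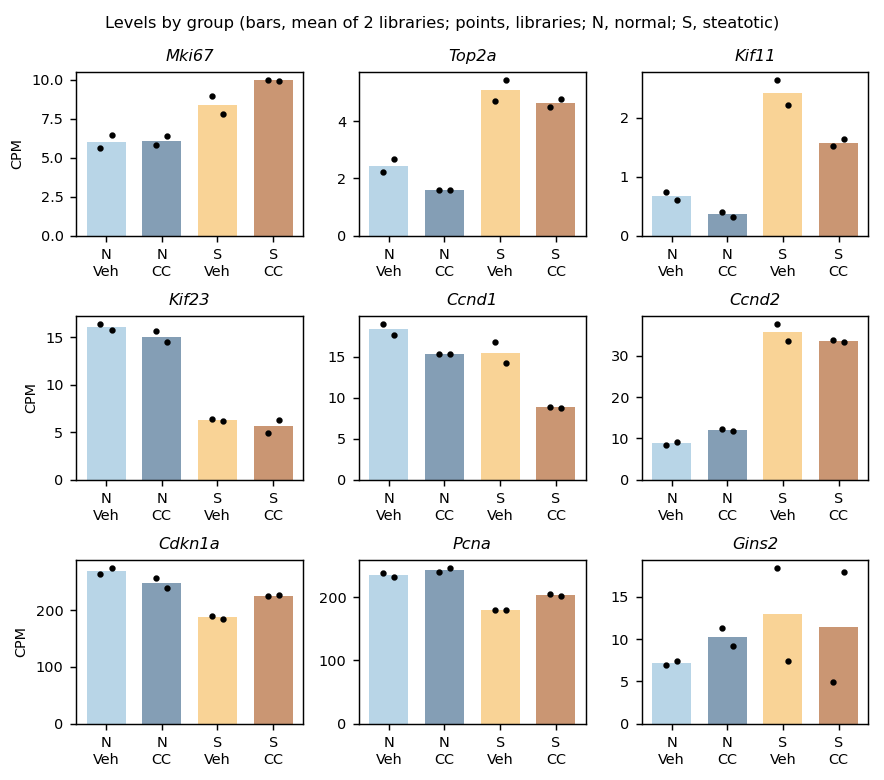
Level in CPM of 9 of the genes in the 4 groups (N, labelled normal; S, labelled steatotic), with bars for the mean of 2 libraries and points for the libraries. *Top2a*, *Kif11* and *Ccnd2* are higher and *Kif23* is lower in both groups labelled steatotic, *Ccnd1* is lowest in the group labelled steatotic with CC (8.84 and 8.76 CPM), and the replicates of *Gins2* are far apart in both groups labelled steatotic.

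The response to CC differed between the labels for 1 of the 41 genes (2.44%), beside 3.22% of all tested genes (1.95% higher and 1.27% lower). This gene was *Cdkn1a* (ENSMUSG00000023067.14, chromosome 17 of GRCm38 from 29090976 to 29100727, plus strand), which rose with the label steatotic as given above. With the label normal, it was at 264 and 275 CPM with Veh and at 256 and 239 CPM with CC, and did not pass the test (edgeR adjusted p = 0.300). The difference between both responses was a log2 value of 0.37 (SE 0.0644 and edgeR adjusted p = 0.0255), and the call was lost without any 1 of 6 of the 8 libraries, with adjusted p up to 0.0952 (the exceptions were replicate 1 labelled normal with Veh and replicate 1 labelled normal with CC). The responses of *Ccnd1* and *Ccnd2* differed by -0.57 and -0.56 on the log2 scale, with edgeR adjusted p = 0.0917 and 0.0622 (for *Ccnd2* 0.0268 with DESeq2). No mitosis or S phase gene passed the edgeR or DESeq2 test of the difference (0 genes), and 1 mitosis gene, *Prc1*, and no S phase gene had an unadjusted p under 0.05 (edgeR), beside 14.2% of all tested genes. The responses of the most different S phase gene between the labels, *Mcm6*, were -0.42 and -0.32, and their difference of 0.10 had an SE of 0.109 (edgeR adjusted p = 0.770).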

How the data were processed

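RNA was sequenced from hepatic macrophages in 8 libraries, 2 for each of 4 groups, with poly(A) selection and a directional kit. Per the methods and the submitters' processing notes, the authors used fastp to trim the reads (150 bp, paired), HISAT2 with the mm10 build for alignment and StringTie for quantification. Tool versions are not given in the sources used here. The authors deposited estimated counts (expected counts) per gene, as whole numbers without normalization, so that no rounding was needed. Between 35.0% and 36.5% of values from 1 to 20 were multiples of 4, from which about 4 counts per fragment were inferred.

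Genes that reached 0.5 CPM in 1 or more libraries entered the test with edgeR 4.0.16 in R 4.3.3 (glmQLFit with robust estimation, glmQLFTest, TMM factors of 0.981 to 1.03) in 1 model with 4 group means, with Benjamini-Hochberg adjustment over 15202 genes and a threshold of 0.05. The common biological coefficient of variation was 0.171, and replicates correlated across genes with Pearson's r of 0.983 to 0.985. Levels are CPM by library total, and levels per kilobase use the union of exons in GENCODE release M21 of GRCm38. Copies were found with blastn 2.17.0. Promoter sequences are from RefSeq (GRCm38.p6). Figures were drawn with matplotlib 3.10.9.

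The members and the gene lists were chosen with earlier results of these data known. All members could be named; of other cell cycle and p53 target lists, at most the 3 called genes of largest log2 fold change per list and comparison, and of marker lists the 2 most abundant. *Mc4r* was named as the knocked-out gene. *Alb*, *Mdm2* and the promoter of *Mcm6* were added after their values were seen, as was the division of the mitosis genes at a mean of 1 CPM. The labels number the replicates 1 and 2 in each group; libraries with the same number did not deviate together (correlation -0.00485 to 0.0629 over 6 pairs of groups), so the numbers were not shown to pair the libraries. The alternatives were DESeq2 1.42.0, library size scaling, other filters, counts divided by 4, a replicate block, the 4 libraries of a comparison alone, other thresholds and leaving out each library. On simulated counts for CC against Veh with the label steatotic (14463 genes), 4% of 1.5-fold changes, 64% of 2-fold changes and 100% of 4-fold changes were recovered (50 each), and 6 unchanged genes were called. Every simulated gene had the same spread and few genes were changed, unlike in the data.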

Additional observations from a re-analysis of the deposited data

Results flagged for a closer look

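For 6 genes of the cell cycle and p53 target lists (1 of 41 members, 1 of 26 other S phase genes and 4 of 15 p53 targets, or 2.44%, 3.85% and 26.7%, beside 3.22% of all tested genes), the response to CC (log2 fold change against Veh) differed between the libraries labelled steatotic and normal by the test of the difference itself (edgeR quasi-likelihood, Benjamini-Hochberg). The response of *Cdkn1a*, the p21 gene, was larger with the label steatotic by 0.37 (adjusted p = 0.0255). That of *Gadd45a*, a growth arrest gene and p53 target, was larger by 1.25 (adjusted p = 0.00219), with levels under the label normal of 33.7 and 32.3 CPM (Veh) and 47.8 and 45.7 CPM (CC), and under the label steatotic of 14.7 and 16.8 CPM (Veh) and 53.3 and 54.2 CPM (CC). That of *Plk2*, a stress-induced polo-like kinase, was larger by 0.97 (adjusted p = 0.00573), with group means of 269.4 and 772.6 CPM with the label normal and 83.1 and 473.2 CPM with the label steatotic, for Veh and CC. *Sesn1*, a p53 target that restrains growth signalling, fell with CC under both labels, and by more with the label steatotic, a difference of -0.74 (adjusted p = 0.0236). The response of *Dnmt1*, the maintenance DNA methyltransferase of S phase, was lower with the label steatotic by -0.33 (adjusted p = 0.0222), with 163.8 and 200.2 CPM for Veh and CC with the label normal and 143.7 and 141.4 CPM with the label steatotic. The response of *Mdm2*, which encodes the ubiquitin ligase of p53 and was named after its values were seen, was larger with the label steatotic by 0.27 (adjusted p = 0.0384), a call that was lost with the replicate number as a block and without any 1 of the 8 libraries (adjusted p up to 0.133). The differences of *Cdkn1a*, *Dnmt1* and *Sesn1* lost the threshold without 1 library, for 6, 6 and 5 of the 8 libraries (adjusted p up to 0.0952, 0.0823 and 0.0834), while those of *Gadd45a* and *Plk2* kept it in all settings tried. All 6 genes also differed between the labels with Veh.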

How the results depend on the processing

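Of 32 calls of single members over the 5 comparisons, 19 kept their side of the threshold in all other settings tried, 13 lost it in at least 1 and 0 reversed. The counts in this section show how the members' calls depend on the setting. The shares of all tested genes under these settings are not given, so the counts cannot be read as results about the members. At an adjusted p under 0.1, 8 members were higher for steatotic against normal with Veh and 13 with CC. For CC, 2 were higher and 4 lower with the label normal, and 6 were lower with the label steatotic. For the difference between responses, 2 were lower. With a log2 fold change over 1 also required, 2 were lower for steatotic against normal with Veh, 4 higher and 2 lower with CC, and 0 higher and 0 lower for CC under either label or for the difference. With library size scaling only, 2 were lower for CC with the label normal, and DESeq2 or keeping genes with any count gave 1 lower for the difference. Leaving out 1 library gave 3 to 5 higher and 5 to 5 lower for steatotic against normal with Veh, 4 to 7 and 4 to 6 with CC, 0 to 1 and 0 to 1 for CC with the label normal, 2 to 2 and 1 to 4 for CC with the label steatotic, and 0 to 1 and 0 to 0 for the difference. These fits assume that the lone library of a group varies like the others. The cause of these shifts was not tested.

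On TMM-scaled library sizes, the mitosis genes summed to 65.0 CPM (normal with Veh), 68.4 CPM (steatotic with Veh) and 63.0 CPM (steatotic with CC), and the S phase genes to 457.3 CPM (normal with Veh) and 369.9 CPM (steatotic with CC). With the replicate number as a block, although the numbers were not shown to pair the libraries, 5 members were higher and 5 lower for steatotic against normal with Veh, and 6 and 6 with CC. Depth limits the 9 mitosis genes under 1 CPM, where 3 fragments are 0.161 to 0.205 CPM. With 2 libraries a group, changes of 1.5-fold were seldom recovered on simulated counts. Those counts differ from the data in spread and in how many genes change, so they do not give the sensitivity here. In the data, *Pcna* and *Cdkn1a* were called for CC with the label steatotic at changes smaller than 1.5-fold.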

Other observations

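Other cell cycle genes, from lists that were not chosen by how they moved but with earlier results known, gave further values. Of 29 other mitosis genes tested, 4 were higher and 1 lower with the label steatotic than with the label normal with Veh (edgeR quasi-likelihood, Benjamini-Hochberg), or 17.2%, beside 30.7% of all tested genes. Their median log2 fold change was 0.11, with 17 of 29 above 0. The higher genes were led by *Espl1*, the protease separase that cuts cohesin, at 0.496 and 0.453 CPM against 2.31 and 1.998 CPM (log2 fold change 2.22, SE 0.386, adjusted p = 0.00379). *Ckap2l* and *Anln*, which encode a spindle protein and the cytokinesis protein anillin, followed with log2 fold changes of 1.68 and 1.32, and each lost the threshold without 1 library (*Ckap2l* without replicate 1 labelled normal, *Anln* without replicate 2 labelled steatotic, adjusted p = 0.0555 and 0.0538). Of 26 other S phase genes, 1 was higher and 6 were lower (26.9%). The higher gene was *E2f8*, a repressor of E2F targets, at 0.368 and 0.589 CPM against 1.48 and 1.78 CPM (log2 fold change 1.81, SE 0.384, edgeR adjusted p = 0.00958, and up to 0.0566 without replicate 1 labelled normal or replicate 2 labelled steatotic), and *Orc1* and *Lig1*, for origin recognition and ligation of DNA, were lower with log2 fold changes of -1.62 and -0.57, of which that of *Orc1* lost the threshold without 1 of 6 libraries (edgeR adjusted p up to 0.165). With CC, 0 other mitosis genes were higher and 2 were lower under each label (6.90%, beside 11.8% of all tested genes with the label normal and 22.9% with the label steatotic).

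Of 16 other G1 genes, 2 rose and 3 fell with CC with the label normal (31.25%), and 3 rose and 5 fell with the label steatotic (50%). The 3 called genes of largest log2 fold change were *Cdk6*, *Ccnd3* and *Cdkn2b* under each label. *Cdk6*, a partner of the D-type cyclins, was at 66.5 ± 0.425 CPM (Veh) and 92.2 ± 0.224 CPM (CC) with the label normal and at 56.4 ± 2.99 CPM and 85.3 ± 6.37 CPM with the label steatotic (SD, n = 2), and rose with log2 fold changes of 0.51 and 0.61 (edgeR adjusted p = 0.00227 and 0.000392). *Ccnd3*, the gene of cyclin D3, was at 28.6 ± 3.80 CPM and 19.6 ± 0.938 CPM, and at 29.2 ± 0.255 CPM and 18.4 ± 1.38 CPM (SD, n = 2), in the same order, and fell with log2 fold changes of -0.51 and -0.65 (edgeR adjusted p = 0.0202 and 0.00370, the former up to 0.112 without replicate 1 with Veh or either replicate with CC). *Cdkn2b*, the gene of the inhibitor p15, rose with log2 fold changes of 0.67 and 0.89 (edgeR adjusted p = 0.0471 and 0.0102), at levels of 1.21 to 4.29 CPM. The former was lost in 13 of 16 other settings, among them DESeq2, the replicate block and without any 1 of the 8 libraries, and the latter without replicate 2 labelled steatotic with Veh (adjusted p up to 0.206 and 0.0569). Of 15 p53 targets, 4 rose and 3 fell with CC with the label normal (46.7%, beside 11.8% of all tested genes), and 5 rose and 4 fell with the label steatotic (60%, beside 22.9%), with median log2 fold changes of 0.00 and -0.08.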
